A study of Homo sapiens with 36 samples.

Results

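Established lymphoma lines that carry Epstein-Barr virus (EBV, 4 lines) were compared with 16 lines that are free of it, which together made 20 of the 36 human lymphoma cell lines of a targeted RNA-Seq series. The carrying lines were FARAGE, GRANTA519, HC_1 and JVM2. The EBV-free lines were DB, DOHH2, JEKO1, KARPAS422, MAVER1, MINO, OCILY1, OCILY7, OCILY19, REC1, SUDHL4, SUDHL6, SUDHL10, TMD8, U2932 and UPN1. The labels give the name of each line and no viral status, treatment, genotype or lymphoma type, so that EBV status and lymphoma type are outside knowledge of these lines and were not measured. Only human genes were compared, and no viral transcript was used.

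By that outside knowledge the groups also differ in lymphoma type, which limits them as a model of infection. GRANTA519 and JVM2 are counted here as mantle cell lines, FARAGE comes from a diffuse large B-cell lymphoma and HC_1 from a hairy cell leukaemia. Of the 16 EBV-free lines, 9 are diffuse large B-cell or related lines of germinal centre type, 2 are of activated B-cell type (TMD8 and U2932) and 5 are mantle cell lines (JEKO1, MAVER1, MINO, REC1 and UPN1). FARAGE was not assigned a cell-of-origin type here and may itself be of germinal centre type, and GRANTA519, HC_1 and JVM2 are not. Each line comes from 1 patient and was measured in 1 library. A p-value below therefore sets a difference between the groups against the spread between lines within them. That spread holds both differences between lines and noise of the libraries, which cannot be told apart.

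EBV infects B cells and persists in them as an episome. In the growth programme of infected B cells, the viral protein EBNA2 binds the DNA-bound factor RBPJ, which also serves NOTCH signalling, and switches on cellular genes such as FCER2 (CD23) and MYC. The viral membrane protein LMP1 acts like a CD40 receptor that is always on and drives NF-kB, and with it activation markers, chemokines and survival genes. Lymphomas that carry the virus can use only a part of this programme.

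Library totals ran from 7980824 to 10394665 counts in the carrying lines and from 8283961 to 13451527 in the EBV-free lines. The mean log2 total differed by -0.256 between carrying and EBV-free lines (exact permutation test over all 4845 ways to choose 4 of 20 lines, two-sided p = 0.0163), while the log2 TMM scaling factor differed by -0.05 (p = 0.813). Depth therefore moved with the groups. Of 7 B-cell markers 6 were measured. None of these had a count of 0 in any of the 20 lines, and neither had any measured marker of the other cell types below. The summed level of the B-cell markers ran from 14347 to 77168 CPM in the carrying lines and from 8822 to 64919 CPM in the others. CPM is the count of a gene relative to the TMM-scaled total of its library. The summed T and NK cell markers (47 to 262 against 17 to 552 CPM, 5 genes), myeloid markers (99 to 234 against 19 to 289 CPM, 5 genes) and stromal, endothelial and epithelial markers (464 to 666 against 305 to 1295 CPM, 6 genes) overlapped between the groups.

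Of 2549 genes on the panel, 2322 reached 10 CPM in at least 4 of the 20 lines and were tested. At an adjusted p under 0.05 (edgeR quasi-likelihood test, Benjamini-Hochberg), 17 genes were higher in the carrying lines (0.732% of those tested) and 4 were lower (0.172%). At an unadjusted p under 0.05 there were 125 higher (5.38%) and 149 lower (6.42%). The median log2 fold change over the tested genes was -0.12, with 1016 genes above 0 and 1306 below. The higher genes included the activation receptors TNFRSF8 (CD30) and TNFRSF9 (4-1BB), the checkpoint ligand PDCD1LG2 (PD-L2), the cytokine receptor chain IL2RB, the phospholipase PLA1A and the transcription factor TCF7. The lower genes were EBF4, STK39, E2F1 and ATM. In the fit with log2 library total as a covariate, 0 genes passed by edgeR (183 at an unadjusted p under 0.05), and all 21 kept their direction.

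**Figure D1:**
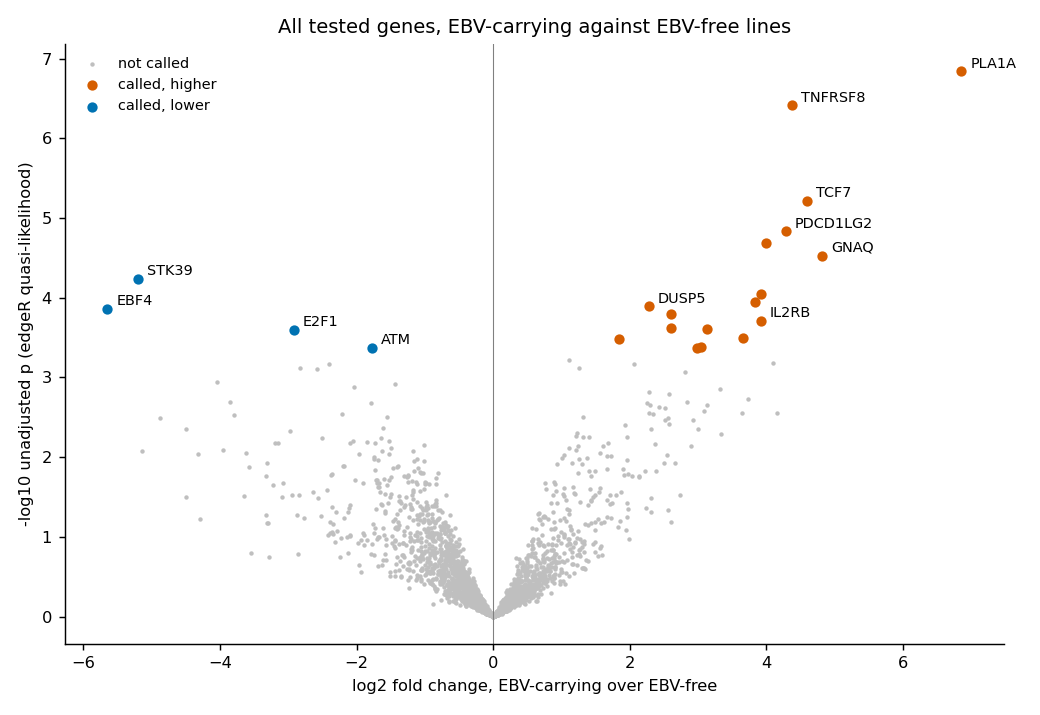
Each point is 1 of the 2322 tested genes, with its log2 fold change (EBV-carrying over EBV-free) on the x axis and the -log10 of its unadjusted edgeR quasi-likelihood p on the y axis. The 17 genes called higher lie to the right, led by PLA1A and TNFRSF8, and the 4 called lower to the left.

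The TNF receptor family held 2 of the called genes among 18 tested members of a list of CD40 and TNF receptor family genes (median log2 fold change 0.47), where 0.732% of all tested genes were called higher and the median over all of them was -0.12. TNFRSF8 encodes CD30, a receptor of activated lymphocytes, and lies at chr1:12063377-12144207 (hg38, plus strand). Its level was 799 CPM in FARAGE, 40.7 in GRANTA519, 389 in HC_1 and 1003 in JVM2, against 3.99 to 87.6 CPM in the EBV-free lines, with a median of 18.5. FARAGE, HC_1 and JVM2 exceeded every EBV-free line, and GRANTA519 lay inside their range, with 4 EBV-free lines above it. The log2 fold change was 4.38 ± 0.62 (SE, n = 4 and 16, edgeR adjusted p = 0.000448).

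TNFRSF9 encodes 4-1BB, a costimulatory receptor induced on activation. It stood at 916 CPM in FARAGE, 33.8 in GRANTA519, 106 in HC_1 and 121 in JVM2, against 2.83 to 102 CPM (median 29.6) in the EBV-free lines. FARAGE was far above all other lines of both groups, and HC_1 and JVM2 lay just above the highest EBV-free line, OCILY7. The log2 fold change was 2.99 ± 0.73 (edgeR adjusted p = 0.0468). TNFSF14, which is not on the list, encodes LIGHT, a ligand of this family that engages the lymphotoxin beta receptor. It stood at 25.7 CPM in FARAGE, 21.7 in GRANTA519, 117 in HC_1 and 136 in JVM2, against 2.49 to 34.2 CPM (median 9.97) in the EBV-free lines, a log2 fold change of 2.60 ± 0.58 (adjusted p = 0.0312). HC_1 and JVM2 were the high lines, and FARAGE and GRANTA519 fell within the EBV-free range. The TNFRSF9 call was lost without FARAGE (log2 fold change 1.23, adjusted p = 0.715), HC_1 (0.0935) or JVM2 (0.144), and without any 1 of 12 EBV-free lines, at adjusted p of 0.0515 to 0.0763. Those 12 were DB, JEKO1, KARPAS422, MINO, OCILY1, OCILY19, REC1, SUDHL4, SUDHL6, TMD8, U2932 and UPN1. The TNFSF14 call was lost without HC_1 (0.168) or JVM2 (0.363), and without OCILY1, TMD8 or UPN1 (0.0525 to 0.0576).

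The remaining members of this list did not pass. FAS, the death receptor, was at 41.4, 81.6, 168 and 164 CPM in FARAGE, GRANTA519, HC_1 and JVM2, against an EBV-free median of 21.3 CPM (log2 fold change 2.03, unadjusted p = 0.0171, edgeR adjusted p = 0.273). LTB, the lymphotoxin beta chain, had values of 11.8 to 24.6 CPM in the carrying lines and a median of 103 CPM in the EBV-free lines, which reached from 1.29 to 829 (log2 fold change -3.58, adjusted p = 0.255). CD40 itself was at 1681 to 3821 CPM in the carrying lines and at 130 to 5403 CPM in the others, with a log2 fold change of 0.54 ± 0.57 (adjusted p = 0.799).

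Promoter windows of some of these genes are shown because NF-kB and RBPJ are the factors through which LMP1 and EBNA2 are known to act. Each window holds the 250 bases before a single RefSeq start of the gene (GRCh38.p14), 5′ to 3′ on the gene's strand. For TNFRSF9, TNFSF14 and STK39 the window lies inside the full hg38 span of the gene. Other starts were not searched. Capitals mark a match to the NF-kB consensus, a match to the RBPJ core GTGGGAA, or an overlap of both, searched on both strands. TNFRSF9 (chr1:7940840-7941089, minus strand) has an NF-kB match that overlaps an RBPJ core, and TNFSF14 (chr19:6670161-6670410, minus strand) has an NF-kB match alone. TNFRSF8 (chr1:12063053-12063302, plus strand), the higher receptor with the smaller p, has neither in this window. STK39 (chr2:168247596-168247845, minus strand) is shown because it was lower in the carrying lines and yet has an NF-kB match that overlaps an RBPJ core. FCER2 (chr19:7702132-7702381, minus strand), a textbook EBNA2 target, has an RBPJ core alone.
TNFRSF9: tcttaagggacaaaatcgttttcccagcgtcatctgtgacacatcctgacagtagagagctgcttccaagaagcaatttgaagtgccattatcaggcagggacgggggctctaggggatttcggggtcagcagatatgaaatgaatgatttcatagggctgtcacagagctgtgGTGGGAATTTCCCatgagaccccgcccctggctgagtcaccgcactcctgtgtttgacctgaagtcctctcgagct
TNFSF14: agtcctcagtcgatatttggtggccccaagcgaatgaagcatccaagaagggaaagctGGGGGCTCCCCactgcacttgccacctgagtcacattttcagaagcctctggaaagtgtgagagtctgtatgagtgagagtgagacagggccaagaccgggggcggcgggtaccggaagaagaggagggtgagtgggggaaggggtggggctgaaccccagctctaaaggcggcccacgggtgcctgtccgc
TNFRSF8: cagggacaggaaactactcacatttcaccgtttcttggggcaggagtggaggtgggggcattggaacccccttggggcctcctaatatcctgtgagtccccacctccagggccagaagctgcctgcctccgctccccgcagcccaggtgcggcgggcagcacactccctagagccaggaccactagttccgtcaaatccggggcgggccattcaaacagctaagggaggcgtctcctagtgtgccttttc
STK39: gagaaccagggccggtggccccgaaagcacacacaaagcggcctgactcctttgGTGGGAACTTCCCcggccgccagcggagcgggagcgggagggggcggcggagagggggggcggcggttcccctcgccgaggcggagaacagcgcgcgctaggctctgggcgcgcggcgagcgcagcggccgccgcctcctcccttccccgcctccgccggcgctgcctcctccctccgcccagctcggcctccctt
FCER2: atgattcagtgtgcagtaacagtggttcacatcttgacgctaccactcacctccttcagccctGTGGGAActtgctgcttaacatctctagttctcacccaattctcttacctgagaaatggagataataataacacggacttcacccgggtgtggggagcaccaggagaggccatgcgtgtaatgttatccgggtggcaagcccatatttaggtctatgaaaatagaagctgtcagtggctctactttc

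Of the 21 called genes, 14 had a promoter in the table. The NF-kB consensus was found in 5 of the 14 (35.7%): STX11, TNFRSF9, TNFSF14, DNAJB5 and STK39. It was found in 220 of 1775 tested genes (12.4%) and in 2614 of all 27305 promoters (9.57%). The RBPJ core was found in 2 of the 14 (14.3%), TNFRSF9 and STK39, in both overlapping the NF-kB match, against 90 of 1775 tested genes (5.07%) and 1492 of all promoters (5.46%). A match is a string of letters and not a measured binding site, and these shares were not tested.

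PLA1A, which encodes a phospholipase that removes an acyl chain from phosphatidylserine, had the largest log2 fold change of the tested genes. It lies at chr3:119597842-119629811 (hg38, plus strand). Its level was 143 CPM in FARAGE, 8.35 in GRANTA519, 570 in HC_1 and 965 in JVM2. The EBV-free lines held 0 to 16.7 CPM, with a median of 1.99. FARAGE, HC_1 and JVM2 lay above all EBV-free lines, and GRANTA519 lay below MAVER1 and TMD8. Most EBV-free lines did not reach the 10 CPM used as the filter, so PLA1A was tested mainly through carrying lines with high values. The size of its fold change rests on low EBV-free values. The log2 fold change was 6.85 ± 0.92 (edgeR adjusted p = 0.000335), and 6.04 without JVM2.

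TCF7 encodes TCF-1, a factor of the WNT pathway best known from T cells. It was the only called gene of the higher set with no overlap between the groups. The level was 2981 CPM in FARAGE, 275 in GRANTA519, 281 in HC_1 and 1247 in JVM2, against 2.74 to 219 CPM (median 18.8) in the EBV-free lines, of which JEKO1 and REC1, mantle cell lines, were the highest. The log2 fold change was 4.60 ± 0.79 (edgeR adjusted p = 0.00472), and 3.60 without FARAGE. Over all tested genes, 2 had every carrying line above every EBV-free line (0.0861%). The other was DNAJB1, a heat shock co-chaperone, at 570 to 893 CPM against 158 to 469 CPM, which did not pass (log2 fold change 1.11, edgeR adjusted p = 0.0631).

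**Figure D2:**
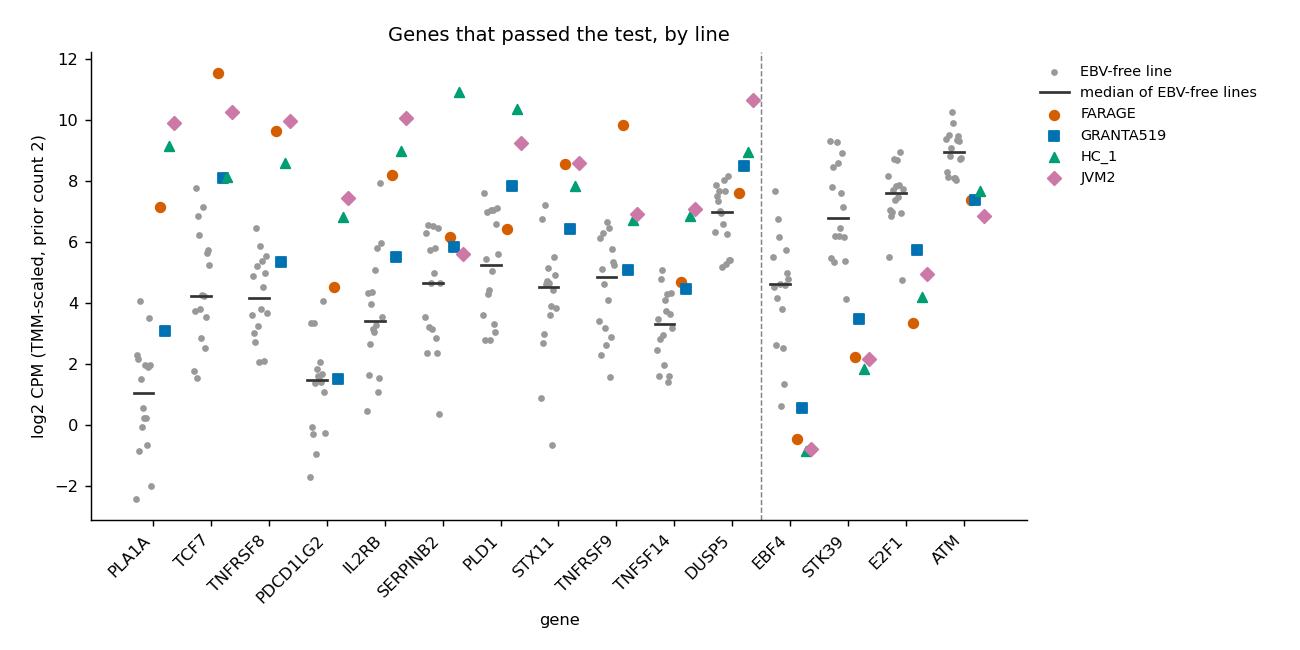
Log2 CPM (TMM-scaled, prior count 2) of the 15 called genes whose carrying lines all lay on 1 side of the EBV-free median, with each EBV-free line as a grey point, their median as a bar and the 4 carrying lines as coloured symbols. To the left of the dashed line are the 11 higher genes, where GRANTA519 is often the carrying line nearest to the EBV-free lines. To the right are the 4 lower genes, of which EBF4, STK39 and ATM do not overlap.

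Among costimulation and checkpoint genes, 1 of 13 tested members passed (0.732% of all tested genes were called higher). A log2 fold change above 0 was found in 11 of the 13 (median 0.95), against 1016 of the 2322 tested genes. PDCD1LG2 encodes PD-L2, a ligand of the inhibitory receptor PD-1, and was at 23.2 CPM in FARAGE, 2.70 in GRANTA519, 114 in HC_1 and 176 in JVM2. The EBV-free lines held 0.12 to 16.6 CPM with a median of 2.59, so that GRANTA519 was at their median and the other carrying lines were above all of them (log2 fold change 4.28 ± 0.78, edgeR adjusted p = 0.00854). Without FARAGE, HC_1, JVM2 or TMD8 it no longer reached 10 CPM in 4 lines and was not tested. CD274, the PD-L1 gene next to it on chromosome 9, was at 78.9, 36.8, 319 and 309 CPM in FARAGE, GRANTA519, HC_1 and JVM2 against a median of 37.3 CPM (log2 fold change 1.90, adjusted p = 0.261). The costimulatory ligands CD80 and CD86 had log2 fold changes of 1.12 and 0.95 (adjusted p = 0.492 and 0.535). SLAMF7, a surface receptor of plasma cells and activated lymphocytes, was at 2362, 101, 366 and 2356 CPM in FARAGE, GRANTA519, HC_1 and JVM2. Its EBV-free median was 3.54 CPM, but DOHH2 reached 540, and it did not pass (log2 fold change 4.15 ± 1.24, adjusted p = 0.132).

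Of 23 tested JAK and STAT genes, 1 passed and 5 had an unadjusted p under 0.05, all with higher values in the carrying lines (median log2 fold change 0.27), against 0.732% and 5.38% of all tested genes in that direction. IL2RB encodes the beta chain shared by the receptors for IL-2 and IL-15. It was at 295 CPM in FARAGE, 46.1 in GRANTA519, 514 in HC_1 and 1078 in JVM2, against 1.20 to 248 CPM (median 10.5) in the EBV-free lines. FARAGE, HC_1 and JVM2 exceeded TMD8, the highest EBV-free line, and GRANTA519 was within the range (log2 fold change 3.92 ± 0.88, edgeR adjusted p = 0.0349). The call was lost without HC_1 (0.0935) or JVM2 (log2 fold change 3.16, adjusted p = 0.363), and the log2 fold change was 4.78 without TMD8. It was also lost without MINO, OCILY1 or UPN1 (0.0525 to 0.0595). JAK2 was at 730, 453, 203 and 264 CPM in FARAGE, GRANTA519, HC_1 and JVM2 against a median of 173 CPM (log2 fold change 1.31, adjusted p = 0.138), and STAT5A at 155, 58.6, 135 and 602 CPM against 46.9 CPM (1.92, adjusted p = 0.273).

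The other called genes with all 4 carrying lines above the EBV-free median belong to no list. SERPINB2, an inhibitor of plasminogen activators, had a log2 fold change of 3.83 ± 0.82 (edgeR adjusted p = 0.0291) that rested on HC_1, at 1931 CPM. FARAGE, GRANTA519 and JVM2 held 72.4, 56.8 and 48.6 CPM, within the EBV-free range of 1.11 to 94.8 CPM, and without HC_1 the log2 fold change was 0.68 (adjusted p = 0.825). PLD1, a phospholipase D, was at 85.5 CPM in FARAGE, 228 in GRANTA519, 1336 in HC_1 and 618 in JVM2, against 6.68 to 197 CPM (3.13 ± 0.72, adjusted p = 0.0365). STX11, a syntaxin needed for granule release by cytotoxic lymphocytes, was at 380, 85.9, 230 and 387 CPM in FARAGE, GRANTA519, HC_1 and JVM2, against 0.453 to 148 CPM (3.05 ± 0.74, adjusted p = 0.0468). DUSP5, a phosphatase that acts on ERK, was at 198, 360, 502 and 1642 CPM in the same order against 36.1 to 291 CPM (2.28 ± 0.50, adjusted p = 0.0291). Of these, FARAGE fell within the EBV-free range for PLD1 and DUSP5, and GRANTA519 for STX11. The calls were lost without HC_1 or JVM2 for PLD1 (adjusted p = 0.290 and 0.210), STX11 (0.123 and 0.363) and DUSP5 (0.0935 and 0.570), with a log2 fold change of 2.26 for PLD1 without HC_1 and of 1.35 for DUSP5 without JVM2, and for STX11 also without FARAGE (0.126). Leaving out 1 EBV-free line ended the PLD1 call for DB, KARPAS422, MINO, OCILY1, REC1, TMD8 or UPN1 (0.0524 to 0.0632). It ended the STX11 call for 13 lines, which were all but DOHH2, MAVER1 and SUDHL4 (0.054 to 0.0763).

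A further 6 genes passed with at least 1 carrying line below the EBV-free median, of which 5 are described here. They were singled out after their values were seen. GNAQ, a G protein alpha subunit, had a count of 0 in FARAGE, which allows up to 0.323 CPM, and 52.96, 80.7 and 96.3 CPM in GRANTA519, HC_1 and JVM2, all above the EBV-free maximum of 12.6 CPM (log2 fold change 4.81 ± 0.93, edgeR adjusted p = 0.0115). Without GRANTA519, HC_1, JVM2 or TMD8, GNAQ was not tested, as too few lines reached 10 CPM. DAPK1, a death-associated kinase, was at 2.80 CPM in FARAGE and at 58.6, 98.3 and 476 CPM in GRANTA519, HC_1 and JVM2, against at most 45.4 CPM in the EBV-free lines (3.99 ± 0.75, adjusted p = 0.00956). Without JVM2 its log2 fold change was 2.41 (adjusted p = 0.376). EPS8 (3.92) and KRT17 (2.60) had their highest values in JVM2, at 1326 and 203 CPM, and their lowest in GRANTA519, at 8.23 and 3.86 CPM. DNAJB5 (1.84) was at 145 to 240 CPM in FARAGE, GRANTA519 and JVM2, above every EBV-free line, and at 30.3 CPM in HC_1. Without JVM2 the log2 fold change was 2.71 for EPS8 and 0.77 for KRT17, and the adjusted p was 0.403 for EPS8, 0.879 for KRT17 and 0.379 for DNAJB5. Without HC_1 it was 0.0935 for EPS8 and KRT17. DNAJB5 also lost its call without FARAGE (0.126) or GRANTA519 (0.0711). Leaving out 1 EBV-free line ended the call of DNAJB5 for 12 lines (all but DOHH2, JEKO1, MAVER1 and SUDHL6, 0.0507 to 0.0698) and that of KRT17 for 10 (all but DOHH2, MAVER1, OCILY7, SUDHL4, SUDHL10 and U2932, 0.052 to 0.0619).

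The lower genes numbered 4, and over all tested genes 7 had every carrying line below every EBV-free line (0.301%). EBF4, a member of the early B-cell factor family at chr20:2692878-2760108 (hg38, plus strand), drew 5, 10, 4 and 3 counts in FARAGE, GRANTA519, HC_1 and JVM2, or 0.538, 1.29, 0.369 and 0.389 CPM. The EBV-free lines held 1.38 to 203 CPM with a median of 24.4, so the groups did not overlap, although GRANTA519 was close to the lowest of them (log2 fold change -5.65 ± 1.24, edgeR adjusted p = 0.0291). STK39 encodes SPAK, a kinase that regulates ion cotransporters, and lies at chr2:167954020-168248141 (hg38, minus strand). It was at 4.52 CPM in FARAGE, 10.9 in GRANTA519, 3.41 in HC_1 and 4.28 in JVM2, against 17.5 to 637 CPM (median 115), again with no overlap (-5.20 ± 1.06, adjusted p = 0.0193). The EBF4 call was lost without FARAGE (0.0837), HC_1 (0.123) or JVM2 (0.210), and the STK39 call without FARAGE (0.0624), HC_1 (0.0935) or JVM2 (0.144), with log2 fold changes that stayed at -5.49 or below for EBF4 and at -5.02 or below for STK39.

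ATM encodes the kinase that signals DNA double-strand breaks. It was at 166 CPM in FARAGE, 165 in GRANTA519, 204 in HC_1 and 116 in JVM2, all below the lowest EBV-free line at 264 CPM, and the EBV-free lines reached 1229 with a median of 497. The log2 fold change was -1.77 ± 0.43 (edgeR adjusted p = 0.0468). PPP2R1B, a scaffold subunit of protein phosphatase 2A, was also below every EBV-free line, at 26.1 to 70.5 CPM against 76.8 to 481 CPM. It did not pass (log2 fold change -1.53, edgeR adjusted p = 0.195). The ATM call was lost without any 1 of the 4 carrying lines (adjusted p of 0.112 to 0.363) and without DB, KARPAS422, MINO, OCILY1, OCILY19, SUDHL4, SUDHL6, TMD8, U2932 or UPN1 (0.0507 to 0.069).

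E2F1 encodes a transcription factor of the G1 to S transition and was the only called gene among 33 tested cell cycle genes (median log2 fold change -0.21), where 0.172% of all tested genes were called lower. Of the 33, 21 had a log2 fold change below 0, close to the share over all tested genes (1306 of 2322). It was at 10.1 CPM in FARAGE, 53.6 in GRANTA519, 18.5 in HC_1 and 30.6 in JVM2, against 27.1 to 493 CPM (median 196). Only GRANTA519 and JVM2 reached into the EBV-free range, at its low end (log2 fold change -2.92 ± 0.67, edgeR adjusted p = 0.0365). The proliferation marker MKI67 was at 607, 3318, 615 and 727 CPM in FARAGE, GRANTA519, HC_1 and JVM2 against a median of 868 CPM (log2 fold change 0.46, adjusted p = 0.823), and the sign turned to -0.56 without GRANTA519. The E2F1 call was lost without FARAGE (0.118), HC_1 (0.168) or JVM2 (0.240), and without DB, MINO, OCILY1, TMD8 or UPN1 (0.0525 to 0.0595).

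The 6 lower genes next by p did not pass. PRKACB, a catalytic subunit of protein kinase A (log2 fold change -2.41, edgeR adjusted p = 0.0635), ZBTB10 (-2.84, 0.066), the RAS regulator RASAL1 (-2.58, 0.066), FOXP1 (-4.04, 0.0876), KLHDC10 (-1.43, 0.0919) and SPI1 (-2.03, 0.0962) made up this set. FOXP1, a transcription factor of B cells, was at 25.7, 146, 11.3 and 7.13 CPM in FARAGE, GRANTA519, HC_1 and JVM2, against a median of 451 CPM and a lowest EBV-free value of 42.3. SPI1 encodes PU.1, a factor of B and myeloid cells, and was at 234, 280, 66.3 and 191 CPM against a median of 714 CPM. RASAL1 and KLHDC10, like ACVR1B, an activin receptor (-1.65, adjusted p = 0.188), had all 4 carrying lines below all EBV-free lines.

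No member of the NF-kB list passed (0 of 14 by edgeR), while 7 of 14 had an unadjusted p under 0.05, all with higher values in the carrying lines, against 5.38% of all tested genes in that direction. The median log2 fold change was 0.87, beside -0.12 over all tested genes. This list, like all the others, was chosen with earlier results of these data known. The shares are therefore a description and no test against that background. NFKB1, which encodes p105/p50, was at 1185, 1441, 795 and 1276 CPM in FARAGE, GRANTA519, HC_1 and JVM2, against 92.8 to 1551 CPM (median 459), a log2 fold change of 1.22 ± 0.40 (edgeR adjusted p = 0.187). NFKB2, the subunit of the non-canonical pathway, was at 1158, 872, 539 and 1198 CPM against a median of 220.5 CPM (1.60 ± 0.54, adjusted p = 0.2003). In both, all 4 carrying lines were above the median, and MAVER1 was the highest EBV-free line and close to or above the highest carrying line.

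TNFAIP3 (A20), which restrains the pathway, was at 1567, 1568, 480 and 2059 CPM in FARAGE, GRANTA519, HC_1 and JVM2, against 8.68 to 1590 CPM (median 119), a log2 fold change of 2.36 ± 0.80 (edgeR adjusted p = 0.198). NFKBIE, an inhibitor of NF-kB, was at 535 to 3005 CPM against a median of 430 CPM (1.43, adjusted p = 0.273), and NFKBIA at 285 to 754 CPM against 161 CPM (0.68, adjusted p = 0.765). The survival genes BIRC3 and BCL2A1 had log2 fold changes of 1.39 and 1.97 (adjusted p = 0.386 and 0.401), with 865 to 3254 and 1467 to 4423 CPM in the carrying lines against medians of 478 and 240 CPM. The subunits REL, RELA and RELB had log2 fold changes of 0.18, -0.04 and 0.52. JUNB, an AP-1 factor outside the list, was at 4817, 2051, 1527 and 4376 CPM in FARAGE, GRANTA519, HC_1 and JVM2 against a median of 515 CPM (2.06 ± 0.53, adjusted p = 0.0635).

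Of the EBNA2 and RBPJ target list, 9 of 13 genes were tested. None passed, 3 had an unadjusted p under 0.05 with higher values in the carrying lines, and the median log2 fold change was 0.90, against 5.38% and -0.12 over all tested genes. As this list too was chosen with earlier results known, these shares are a description and no test. FCER2 encodes CD23, the low-affinity IgE receptor, and was at 487 CPM in FARAGE, 2629 in GRANTA519, 1951 in HC_1 and 459 in JVM2. The EBV-free median was 12.4 CPM, and MAVER1, at 1077, was the only EBV-free line above any carrying line (log2 fold change 3.73 ± 1.06, edgeR adjusted p = 0.1197). CCR7, the homing receptor for lymph nodes, was at 754, 403, 682 and 3287 CPM in FARAGE, GRANTA519, HC_1 and JVM2 against a median of 89.5 CPM (2.55 ± 0.90, adjusted p = 0.222). CCND2, the D cyclin of activated B cells, was at 38.0, 181, 1666 and 3474 CPM against 42.5 CPM (3.32 ± 0.91, adjusted p = 0.0983), with FARAGE below the median. MYC was at 1317, 366, 1336 and 1613 CPM against a median of 1780 CPM (-1.03 ± 0.76, adjusted p = 0.658), and all 4 carrying lines lay below that median. Of 16 tested NOTCH pathway genes, which share RBPJ, none passed, and the 2 with an unadjusted p under 0.05 had lower values: JAG2 (-3.31, adjusted p = 0.243) and DTX1 (-2.18, adjusted p = 0.252). Over all tested genes, 6.42% had such a p with lower values.

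Chemokines and cytokines gave no call in 27 tested genes (median log2 fold change 0.13), with 4 at an unadjusted p under 0.05 and higher values in the carrying lines and 2 with lower values, where all tested genes gave 5.38% and 6.42%. CCL22, which attracts CCR4-bearing T cells, was at 71.1 CPM in FARAGE, 713 in GRANTA519, 524 in HC_1 and 12843 in JVM2. The EBV-free lines held 5.21 to 1103 CPM with a median of 59.6, so JVM2 alone was above all of them (log2 fold change 4.10 ± 1.04, edgeR adjusted p = 0.0635). CCL5 was at 61.4, 287, 427 and 954 CPM against a median of 28.7 CPM (2.50, adjusted p = 0.243). IL7, a growth factor of lymphocytes, was at 94.5, 216, 274 and 320 CPM against a median of 25.9 CPM (2.52 ± 0.74, adjusted p = 0.127), with FARAGE alone of the carrying lines under the highest EBV-free line, MAVER1 at 164 CPM. IL12B, the shared p40 chain of IL-12 and IL-23, was at 34.3, 9.90, 74.5 and 386 CPM against a median of 10.7 CPM (2.38, adjusted p = 0.265).

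**Figure D3:**
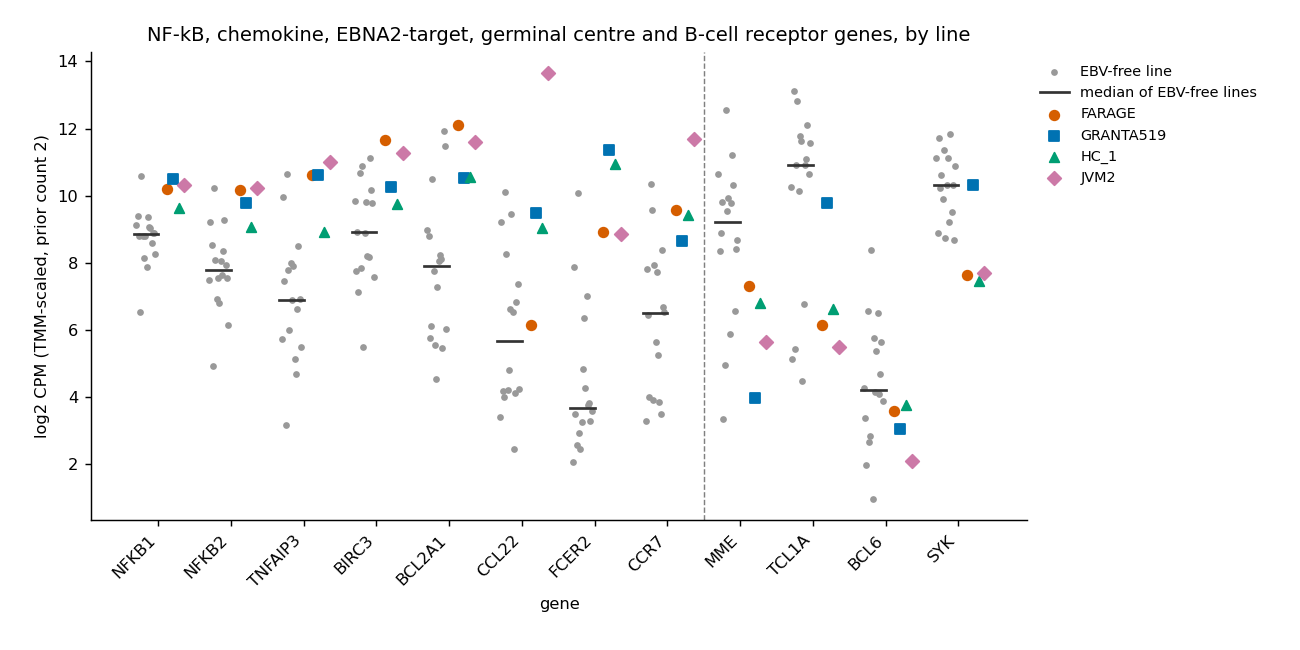
Log2 CPM (TMM-scaled, prior count 2) in each line for genes of the NF-kB, chemokine and EBNA2 target lists (left of the dashed line) and of the germinal centre and B-cell receptor lists (right), with EBV-free lines in grey, their median as a bar and the 4 carrying lines as coloured symbols. None of these 12 genes passed the test. The 12 were picked from their lists. On the left the carrying lines lie above the EBV-free median, and on the right they lie below it except GRANTA519 for SYK. Members not shown went the other way. Log2 fold changes were below 0 for 2 of 14 NF-kB, 9 of 27 chemokine and cytokine and 2 of 9 EBNA2 target genes. B-cell receptor genes had 6 above and 6 below 0, and germinal centre genes 1 above and 12 below.

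Germinal centre genes lay the other way. None of 13 tested members passed, 3 had an unadjusted p under 0.05 with lower values in the carrying lines (6.42% of all tested genes did), and 12 of 13 had a log2 fold change below 0 (1306 of 2322 over all tested genes), with a median of -1.44. MME (CD10), a surface peptidase of germinal centre cells, was at 158 CPM in FARAGE, 15.3 in GRANTA519, 111 in HC_1 and 49.9 in JVM2 against a median of 605 CPM (log2 fold change -3.62 ± 1.27, edgeR adjusted p = 0.220). TCL1A, a coactivator of AKT, was at 70.8, 871, 97.2 and 44.2 CPM against 1932 CPM (-3.22 ± 1.31, adjusted p = 0.297). BCL6, the repressor that defines the germinal centre programme, was at 11.8, 8.10, 13.4 and 4.02 CPM against 18.3 CPM, and the EBV-free lines reached 330 (-2.36 ± 1.10, adjusted p = 0.393). As 9 of the 16 EBV-free lines are of germinal centre type and GRANTA519, HC_1 and JVM2 are not, EBV status and lymphoma type cannot be told apart for these genes. IRF4, a factor of activated B cells and plasma cells, was at 354 to 1425 CPM against a median of 288 CPM (0.66 ± 1.14, adjusted p = 0.902), and its log2 fold change was -0.02 without the EBV-free lines of germinal centre type.

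B-cell receptor and identity genes gave no call in 12 and 10 tested members, with median log2 fold changes of -0.17 and -0.22. At an unadjusted edgeR p under 0.05, receptor genes had 2 with higher and 2 with lower values, and identity genes 0 and 2. All tested genes gave 5.38% and 6.42% at that level. The kinase SYK was at 200, 177 and 208 CPM in FARAGE, HC_1 and JVM2, below every EBV-free line, and at 1279 CPM in GRANTA519, at the EBV-free median of 1275 CPM (log2 fold change -1.74, edgeR adjusted p = 0.265). BTK was at 246 to 369 CPM against a median of 513 CPM (-1.02, adjusted p = 0.270). PIK3CD and MALT1, which act in the same pathway, had values on the other side, with log2 fold changes of 1.16 and 1.31 (adjusted p = 0.241 and 0.187). TCF3 (E2A), a factor of B-cell identity, had -1.74 (adjusted p = 0.228).

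Genes of antigen presentation and the interferon response showed no call. The 6 tested MHC class I and processing genes had a median log2 fold change of 0.73 and none had an unadjusted p under 0.05, and the 18 tested interferon response genes had a median of 0.41 with 1 at an unadjusted p under 0.05. That 1 had higher values in the carrying lines, as did 5.38% of all tested genes at that level. HLA-B was at 1998 CPM in FARAGE and at 11297 to 25944 CPM in the other carrying lines, against 51.7 to 28629 CPM (log2 fold change 1.49, edgeR adjusted p = 0.562). CD74, the invariant chain of MHC class II and the only class II list member on the panel, was at 7848 CPM in FARAGE and at 28649 to 71418 CPM in the others, against a median of 15935 CPM (1.11, adjusted p = 0.430). In HLA-B and CD74, FARAGE was the lowest of the carrying lines.

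None of 16 tested cyclin D, p53 and inhibitor genes passed, and 4 had an unadjusted p under 0.05, all with higher values in the carrying lines (median log2 fold change -0.36), against 5.38% of all tested genes. CDKN1A (p21), the p53-induced inhibitor of cell cycle kinases, was at 468, 757, 1527 and 3695 CPM in FARAGE, GRANTA519, HC_1 and JVM2 against a median of 237 CPM (1.96, edgeR adjusted p = 0.377). MDM2, which degrades p53, was at 1803, 2509, 2472 and 3582 CPM against 1211 CPM (1.01, adjusted p = 0.228), and GADD45B at 2624, 1183, 1314 and 3168 CPM against 332 CPM (1.93 ± 0.60, adjusted p = 0.154). All 4 carrying lines were above the EBV-free median for each of these. Of 24 tested apoptosis regulators none passed and 4 had an unadjusted p under 0.05, all with higher values (median 0.06), against the same 5.38%. The lists share members, so their counts are not independent. They were also chosen with earlier results of these data known, so these shares are no test against all tested genes. Of these 4, BCL2A1 and BIRC3 are also on the NF-kB list and FAS on the TNF receptor list. CCND2 is on the EBNA2 target, activated B-cell and cyclin D lists, and CCR7 on the EBNA2 target and homing lists. The remaining lists also gave no call by edgeR. Adhesion and homing genes had 2 members at an unadjusted p under 0.05 with higher values and 1 with lower values (12 tested, median 0.16), and activated B-cell and plasma cell genes had 1 each way (14 tested, median 0.17). Of the markers of other cell types, T and NK cell genes (11 tested, median 0.04) and stromal, endothelial and epithelial genes (13 tested, median -0.12) had none at that level, and myeloid genes (8 tested, median -0.16) had 1 with higher values. All tested genes gave 5.38% with higher and 6.42% with lower values at that level.

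**Figure D4:**
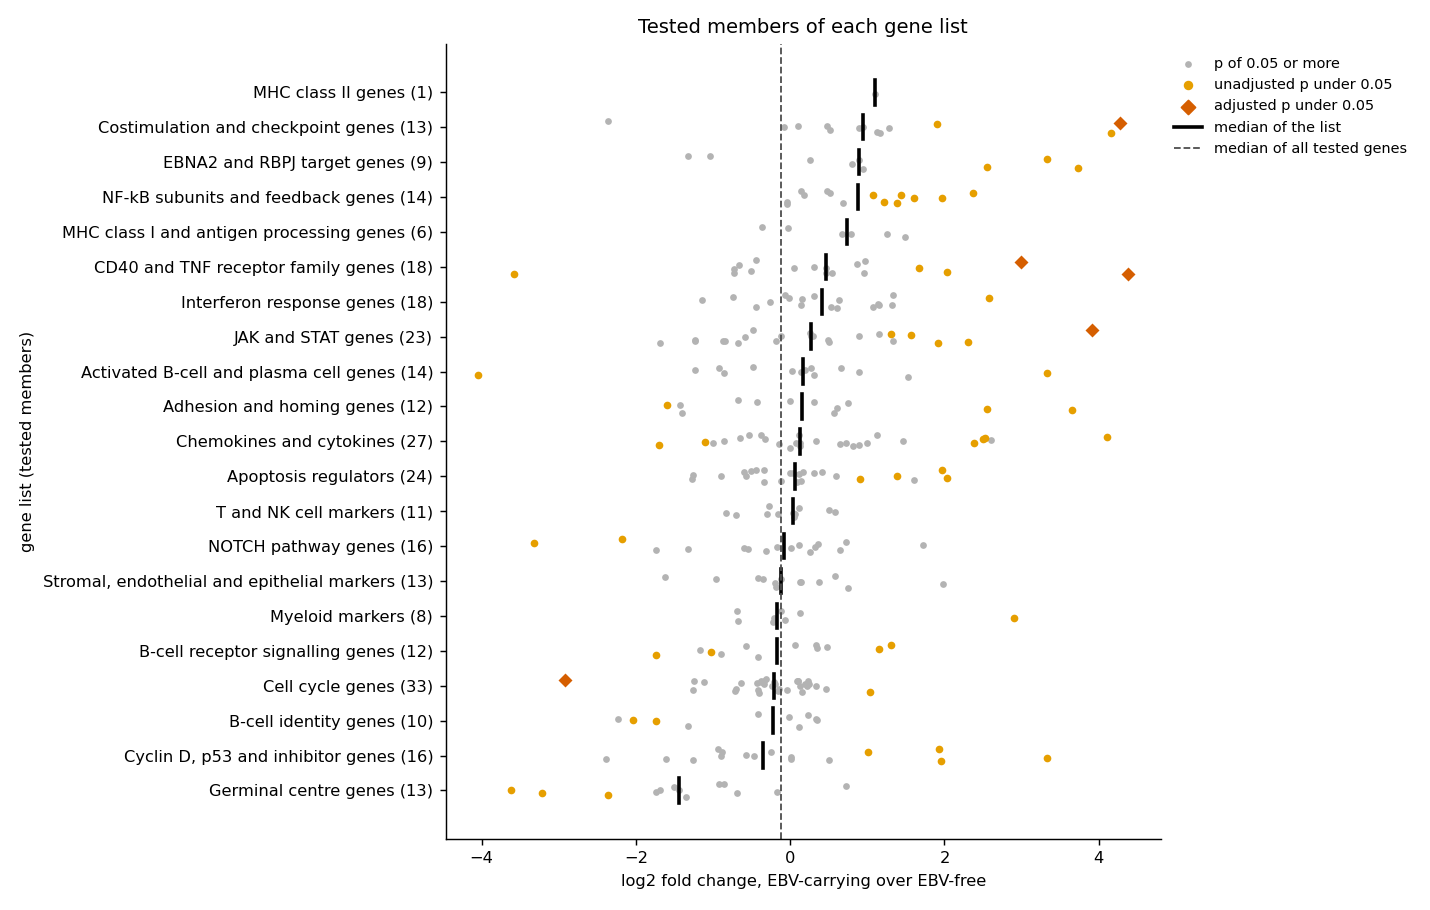
Each point is a tested member of a gene list, with its log2 fold change (EBV-carrying over EBV-free) on the x axis. Orange points had an unadjusted p under 0.05 and red diamonds an adjusted p under 0.05. The black bars are list medians and the dashed line the median of all tested genes (-0.12). The NF-kB and EBNA2 target medians lie to the right, at 0.87 and 0.90, and the germinal centre median at -1.44.

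The difference between carrying and EBV-free lines was also computed among mantle cell lines and among the other lines. The other lines still mix lymphoma types, as HC_1 comes from a hairy cell leukaemia and no EBV-free line does. Among mantle cell lines (2 against 5) and among the other lines (2 against 11), the log2 fold change of TNFRSF8 was 4.03 and 4.60, that of TCF7 2.69 and 6.49, that of EBF4 -6.17 and -5.39, and that of ATM -1.50 and -1.76. TNFRSF9 had 1.24 and 3.71, and SERPINB2 1.07 and 4.55. By edgeR 0 genes passed among mantle cell lines alone and 4 among the other lines, TNFRSF8 and TCF7 among them. EBF4, ATM, TNFRSF9 and SERPINB2 passed in neither set. PLA1A, PDCD1LG2 and GNAQ were tested in neither, as too few lines of each set reached 10 CPM. Whether the difference itself differed between mantle cell lines and the others was asked with an interaction term, and edgeR called 0 genes (57 at an unadjusted p under 0.05, lowest adjusted p 0.976). DESeq2's Wald test called 2, FGF22 and MYBL1, both with an adjusted p of 0.0331. With mantle origin as a covariate 11 genes were higher and 3 lower. Without the 9 EBV-free lines of germinal centre type (4 against 7) 4 were higher and 2 lower, and PLA1A, TNFRSF8 and TCF7 each had an edgeR adjusted p of 0.0391 there. EBF4 also passed in that fit (0.0372). The other 17 of the 21 calls were lost, among them PDCD1LG2 (0.167), IL2RB (0.233), E2F1 (0.173), ATM (0.172) and STK39 (0.0752). The log2 fold change of STK39 was -3.75 there.

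The count of calls rested on HC_1 and JVM2 more than on the other carrying lines. It was 5 higher and 0 lower without HC_1 and 4 higher and 0 lower without JVM2, against 15 and 0 without FARAGE and 16 and 7 without GRANTA519. Without MAVER1, the EBV-free line with the highest level of PLA1A and TNFRSF8, 33 genes were called higher. PLA1A, TNFRSF8 and TCF7 kept their calls when each of the 20 lines was left out in turn, with highest adjusted p of 0.00465, 0.00824 and 0.0478.

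**Figure D5:**
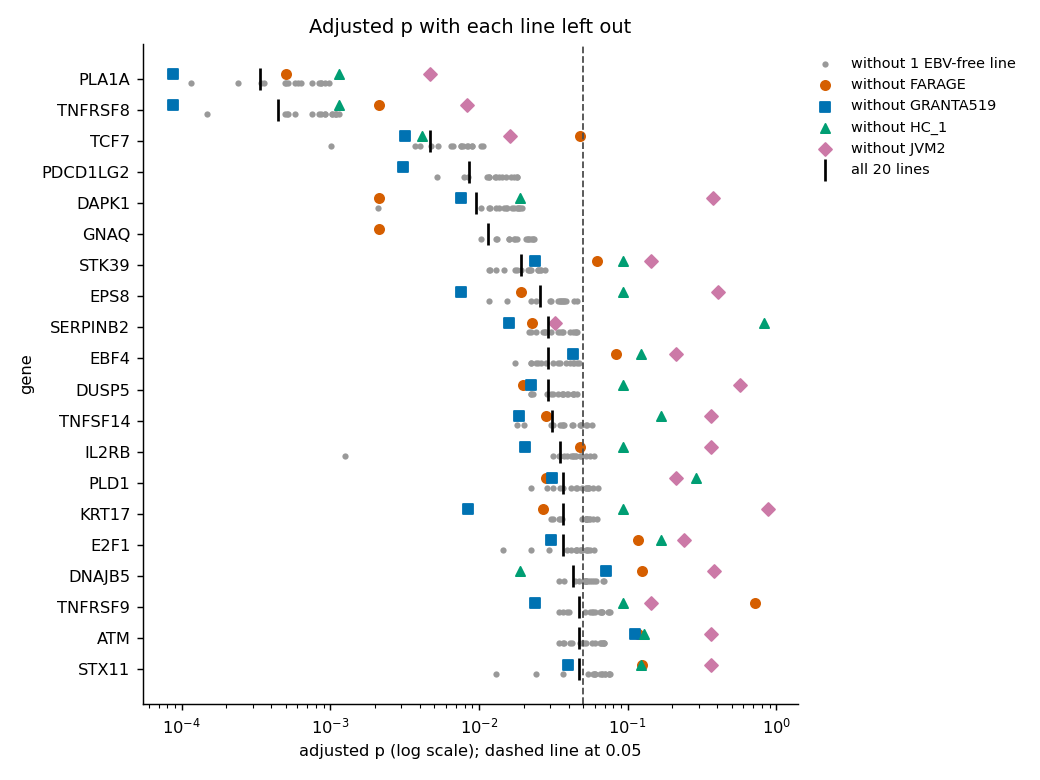
Adjusted p (edgeR, log scale) of 20 of the 21 called genes with all 20 lines (black bars) and with each line left out, where grey points are EBV-free lines and coloured symbols the carrying lines. The dashed line marks 0.05. Only PLA1A, TNFRSF8 and TCF7 stay left of it in all 20 cases, and PDCD1LG2 and GNAQ lack points where they were not tested.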

How the data were processed

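RNA of 36 human lymphoma cell lines was measured by targeted RNA-Seq, with 1 library per line. Per the labels' protocols, cells were lysed, treated with proteinase K and run as singletons. The deposited table holds the authors' raw counts of 2559 targets as whole numbers, and genome build hg38 comes from the submitters' processing notes. For the aligner, probe positions and use of strand, nothing is given in the sources used here. A second deposited table holds log2 values, which differed by at most 0.0053 from log2 of 1 plus the count scaled by a factor for that library. In the 20 lines compared, 10 targets named ER and a number, which name no gene, held at most 0.00293% of the counts and were left out.

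Lines were grouped by names in the labels and by outside knowledge of EBV status and lymphoma type. Genes and lists were chosen with earlier results of these data known. TMM factors came from all 36 libraries. Genes with at least 10 CPM in at least 4 of the 20 lines were tested with edgeR 4.0.16 (quasi-likelihood, two-sided, Benjamini-Hochberg, threshold 0.05, prior count 2). The standard error (SE) is the log2 fold change over the square root of F. CPM are TMM-scaled. The script was tested on simulated data. The text names the 15 largest called changes in each direction with all 4 carrying lines on 1 side of the EBV-free median, filled to 10 by the smallest p, and members of 21 lists. Of the called genes, 1 is counted but not reported here. Alternatives used other scaling, filters, covariates and line subsets, DESeq2 1.42.0 and limma 3.58.1. Library totals and TMM factors were compared by exact permutation. For a count of 0, the upper limit was set at 3 counts, which covers counting error only. Gene positions come from GENCODE 29 and promoters from RefSeq. The highest correlation of log2 CPM between libraries was 0.915, so no library appeared to be deposited more than once.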

Additional observations from a re-analysis of the deposited data

Results flagged for a closer look

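Among 81 genes looked at for a carrying line that stood apart from the other carrying lines, 7 had one. For normally distributed values chance gives about 1 in 20. Some of the 81 genes were chosen on these same values, so the 7 cannot be set against that rate. FARAGE had 0 CPM of GNAQ, and the next carrying line had 52.96 CPM. GRANTA519 was the highest carrying line for MKI67, at 3318 CPM against 727 in the next, and for SYK, at 1279 CPM against 208. It was the lowest for MYC, at 366 CPM against 1317, and for PPP2R1B, at 26.1 CPM against 65.8. JVM2 was the lowest for RASAL1, at 2.59 CPM against 19.7. HC_1 was the highest for SERPINB2, at 1931 CPM against 72.4.

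Several lines that belong to neither group, and whose EBV status was not used here, exceeded every EBV-free line for the higher genes. VL51 was the highest of them for PLA1A (297 CPM), TNFRSF8 (2415 CPM), PDCD1LG2 (284 CPM), STX11 (199.9 CPM), TNFRSF9 (347 CPM), TNFSF14 (133 CPM) and DUSP5 (2734 CPM). HAIR_M was the highest for TCF7 (1665 CPM) and IL2RB (665 CPM). MEC1 was the highest for PLD1 (229 CPM) and SERPINB2 (185 CPM).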

How the results depend on the processing

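Counts of calls are given as higher and lower genes, beside 17 and 4. They were 19 and 2 with DESeq2 size factors in edgeR, 11 and 7 with library size alone, 26 and 4 with no filter, 8 and 3 at a minimum of 50 CPM, 44 and 50 by DESeq2's Wald test, 18 and 2 by limma-voom and 6 and 8 on the authors' log2 values. Of the 21 calls, limma-voom shared 8 and lost 13, and the fit of the authors' log2 values shared 7 and lost 14. In edgeR, 2 of the 21 were lost with DESeq2 size factors (E2F1 and ATM) and 10 with library size alone. Upper-quartile factors called 22 genes and lost 7 of the 21, among them IL2RB, PLD1, TNFRSF9, TNFSF14, DUSP5 and KRT17. Counts of higher and lower genes were 44 and 14 with the log2 TMM factor as a covariate, 0 and 0 with the log2 library total and 11 and 3 with mantle origin. They were 0 and 0 in mantle cell lines alone (160 at an unadjusted p under 0.05), 4 and 0 in the other lines and 4 and 2 without the EBV-free germinal centre type lines. Leaving out 1 line gave 4 to 33 higher and 0 to 7 lower genes. DESeq2's Wald test called 2 genes for the interaction with mantle origin, and edgeR 0. The difference in the log2 TMM factor ranged from -0.168 to 0.078 with 1 carrying line left out, changing sign without GRANTA519 (0.078) and JVM2 (0.0256). That in the log2 library total ranged from -0.323 to -0.196, with p = 0.0888 without FARAGE, and was -0.204 without germinal centre type lines (p = 0.106, exact permutation). Directions turned for IRF4 without germinal centre type lines (-0.019), for CD74 in lines other than mantle cell lines (-0.0266) and for MKI67 there (-0.51) and without GRANTA519 (-0.56, in a range up to 0.70 over the carrying lines left out). The cause was not tested.

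No paired analysis was possible because replicate numbers only name lines, and no line of 1 group is paired with a line of the other. With 4 carrying lines, 1 library per line and lymphoma types that differ between the groups, EBV status, lymphoma type and line cannot be told apart. A gene that missed the threshold is not shown to be equal in the groups.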

Other observations

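Of the 11 higher genes with all 4 carrying lines above the EBV-free median, some lines of neither group exceeded every EBV-free line for most. MEC1 did so for 9, VL51 for 8 and HAIR_M for 7 of the 11, and RCK8 for 3 and HBL1 for 2. How often each line did so over all tested genes was not counted, so these numbers have no background to be read against. OCILY8, OCILY18, SP53, TOLEDO and WSU_DLCL2 did so for none. After VL51, the next highest of these lines was HAIR_M for PLA1A (168 CPM), TNFRSF8 (877 CPM) and PDCD1LG2 (52.4 CPM).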
